A study of Mus musculus with 27 samples.

Results

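The expression of 10 genes of bile acid synthesis and transport was followed in mouse liver over 7 stages of a reproductive cycle. They are the synthesis enzymes Cyp7a1, Cyp8b1, Cyp27a1 and Cyp7b1, the repressor Nr0b2, the uptake carriers Slc10a1 and Slco1b2, and the canalicular exporters Abcb11, Abcb4 and Abcc2. The genes were chosen by symbol, and each symbol matched 1 of the 51826 gene identifiers in the deposited tables, so 10 of 10 genes were found. All 10 were measured in all 27 livers, and all 10 passed the filter on low counts that left 16428 genes for testing.

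The livers came from wild-type BALB/c mice, an inbred laboratory strain, which the study's design text calls age-matched without an age at collection. Those that were bred were mated when 10 to 12 weeks old. Litters were evened in size, and pups were taken away after 10 to 14 days of lactation. The stages were nulliparous (NUL, 4 animals), day 10 of lactation (LAC, 3), involution after weaning at day 2 (ID2, 3), day 4 (ID4, 4), day 6 (ID6, 6) and day 8 (ID8, 3), and 4 weeks after weaning (REG, 4). The labels name no drug, transgene or deletion in any group. Each title number was taken as 1 animal, and p-values measure the spread between these livers.

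Hepatocytes make bile acids from cholesterol. The classic pathway begins with Cyp7a1, and an alternative pathway begins with Cyp27a1 and continues with Cyp7b1. Bile acids pass into bile at the canalicular membrane, return from the intestine by the portal vein and are taken up again by carriers on the sinusoidal membrane. Bile acids also restrain their own synthesis through the receptor FXR (Nr1h4), one of whose targets is Nr0b2 (SHP), a repressor of Cyp7a1 and Cyp8b1.

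Estimated counts totalled 41120650 to 75664540 per library, and the 10 genes had between 903 counts (the lowest value of Nr0b2) and 82236 counts (the highest of Abcb11) in a library. The hepatocyte marker Alb stood between 46365 and 127179 TPM (a level per transcript length, scaled to the same total in every library) in every library. Of the duct cell markers, Krt19 and Cftr reached at most 2.59 and 0.06 TPM, Cftr was at 0 in at least 1 library, and Spp1 stood between 17.2 and 44.2 TPM. Title numbers fell into 2 ranges that the labels do not explain, under 200 in 7 animals (all 3 ID8, 2 of 3 ID2 and 2 of 4 ID4 animals) and 200 or over in the other 20. One ID2 library, ID2_31, held 1922 TPM summed over 7 pancreas markers, against 8.39 to 133 in the other libraries. Clock genes also differed between livers. The clock score, the mean log2 level of 9 genes of the day arm minus that of 5 genes of the night arm, was -0.77 to 0.996 at ID2, against -2.57 to -1.36 in NUL. ID4_15 (-0.58), REG_203 (-0.50) and ID8_14 (-0.47) lay within the ID2 range, and ID2_39 alone (0.996) was above all libraries of the other stages. The labels give no time of day.

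Of the 10 genes, 5 varied over the cycle. They were Cyp8b1, Cyp27a1, Slc10a1, Slco1b2 and Abcb4 (edgeR quasi-likelihood F test over the 7 stages, Benjamini-Hochberg adjusted p under 0.05, hereafter "called"). Among all genes tested, 26.97% were called in the same joint test. Cyp8b1 (adjusted p = 4.96e-05), Cyp27a1 (0.000137) and Slc10a1 (0.00116) remained called when any 1 of the 27 animals was left out. Slco1b2 (adjusted p = 0.0308) and Abcb4 (0.0411) lost the call in 6 and 17 of the 27 such fits, with adjusted p up to 0.106 without LAC_240 and up to 0.115 without ID4_13. With the title number range as a covariate, Slco1b2 (0.0642) and Abcb4 (0.0989) were not called, and Cyp8b1, Cyp27a1 and Slc10a1 were. Abcb4 was also not called without the filter on low counts (0.0715) or on log2(TPM + 1) and log2(TPM + 0.1) (0.151 and 0.143). Cyp7a1 (adjusted p = 0.256), Cyp7b1 (0.410), Abcc2 (0.337), Nr0b2 (0.0867) and Abcb11 (0.0705) were not called in the joint test. DESeq2 called Nr0b2 (0.0309) and Abcb11 (0.0163), and Nr0b2 was also called on log2(TPM + 1) (0.0196) and with the clock score as a covariate (0.00657).

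**Figure D1:**
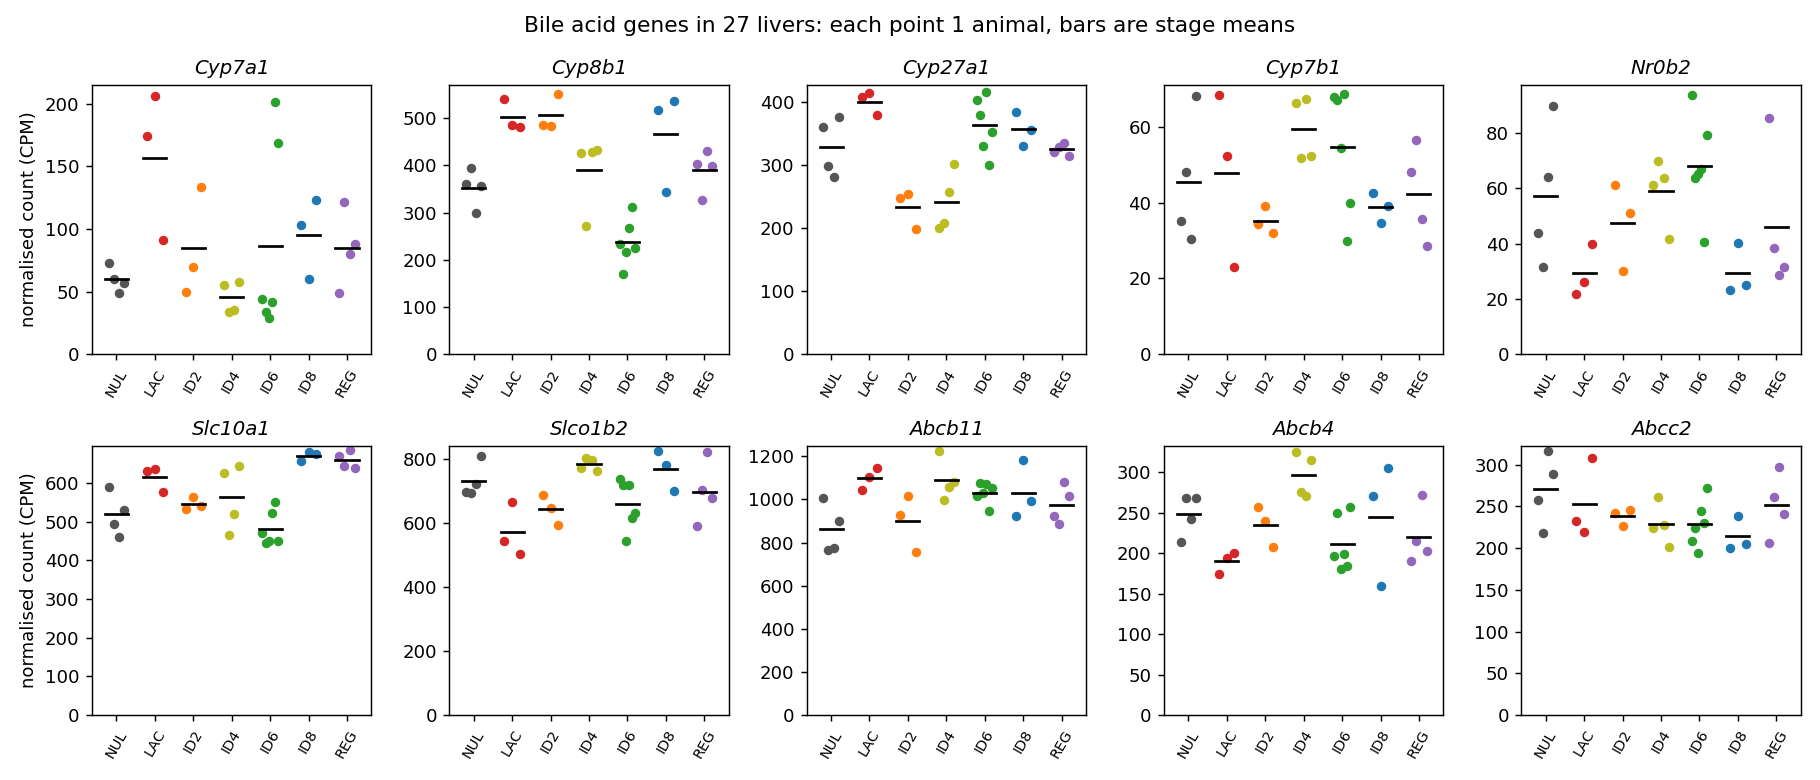
Level of each of the 10 genes (vertical axis, normalised count in CPM, starting at 0) in the 7 stages (horizontal axis). Each point is 1 animal and each bar the stage mean. Cyp8b1 sits lowest at ID6 (mean 237 CPM), Cyp27a1 lowest at ID2 and ID4 (233.9 and 243 CPM), and Cyp7a1 at ID6 falls into 4 low and 2 high animals.

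At LAC against NUL, 2 of the 10 genes were called: Abcb11 was higher and Slco1b2 lower. In that comparison 11.2% of all genes tested were called, and CPM of the groups did not overlap for 6 of the 10 genes, against 21.4% of all genes. An unadjusted p under 0.05 was found for 8 of the 10 genes and for 23.6% of all genes. At ID2 and again at ID4, Cyp27a1 alone of the 10 was called against NUL, and it was lower. In these comparisons 3.24% and 4.25% of all genes were called. At ID6, Cyp8b1 alone was called, and it was lower, where 1.08% of all genes were called. No gene of the 10 was called at ID8 or REG against NUL by edgeR, where 0.499% and 0.0852% of all genes were. In those comparisons 5 and 1 of the 10 had an unadjusted p under 0.05, as did 12.8% and 7.17% of all genes. DESeq2 called 1 (Slc10a1) and 0 of the 10, and 238 and 73 genes in all. These comparisons share the NUL animals.

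Between successive stages, Cyp27a1 fell from LAC to ID2 as the only called gene of the 10, where 16.1% of all genes were called. From ID2 to ID4 edgeR called 0 of the 10 and 1.49% of all genes. At that step 5 of the 10 and 13.9% of all genes had an unadjusted p under 0.05, and DESeq2 called 0 of the 10 and 521 genes in all. From ID4 to ID6, Cyp8b1 and Abcb4 fell and Cyp27a1 rose, where 8.53% of all genes were called. From ID6 to ID8, Cyp8b1 and Slc10a1 rose, where 4.12% were called. From ID8 to REG, edgeR and DESeq2 called 0 of the 10, 0 had an unadjusted p under 0.05, and edgeR called 0.0487% of all genes. Median log2 fold changes of the 10 genes lay between -0.13 and 0.16 in the 11 comparisons, and those of all genes between -0.02 and 0.02.

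**Figure D2:**
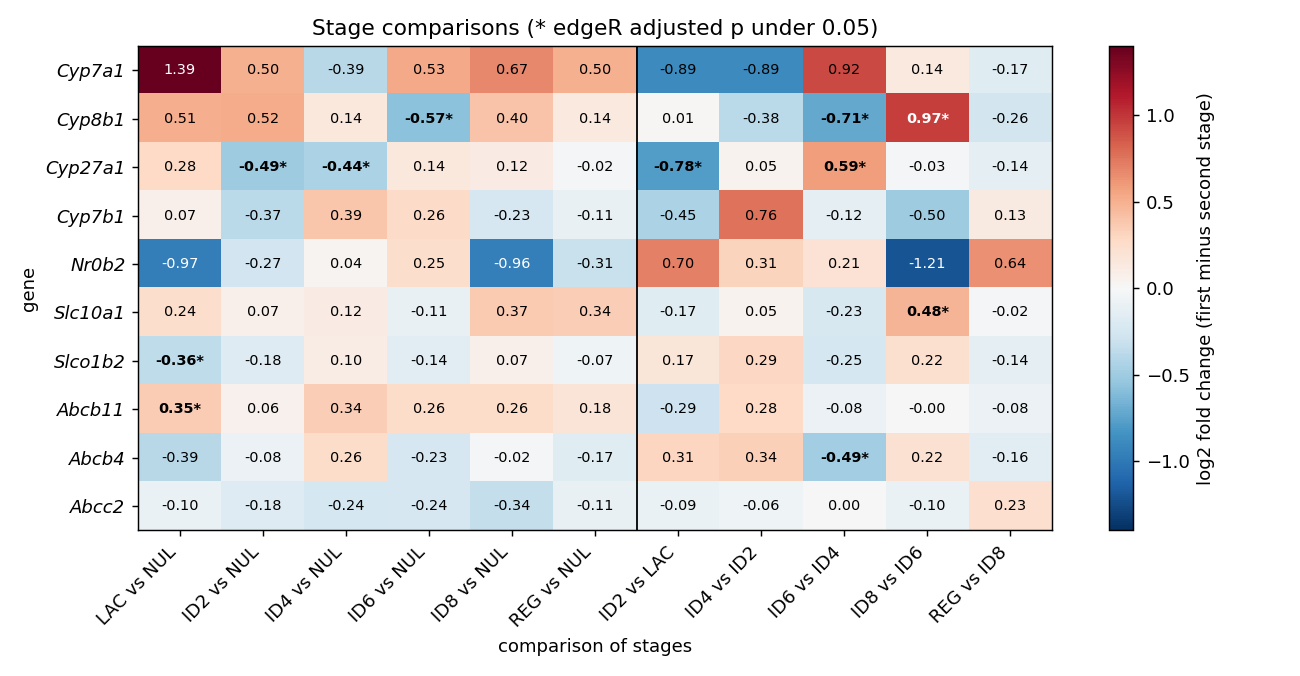
Log2 fold change of the 10 genes (rows) in the 11 comparisons (columns, first stage minus second), printed in each cell and coloured on a scale from blue (lower) to red (higher). A star marks an edgeR adjusted p under 0.05, and the 11 stars fall on 6 genes: Cyp8b1, Cyp27a1, Slc10a1, Slco1b2, Abcb11 and Abcb4.

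Cyp8b1, the sterol hydroxylase required for making cholic acid, showed the lowest level at ID6 and rose again by ID8. The gene lies at chr9:121914356-121916305 on the minus strand (GRCm38). In NUL its normalised counts (CPM, after TMM scaling to a shared library size) were 359.8, 394, 300.04 and 357. They were 540.1, 485 and 481 at LAC and 485, 484 and 551 at ID2, so that every LAC and ID2 animal was above every NUL animal. At ID4 they were 427, 272, 428 and 431. At ID6 the lowest was 169.9 CPM, the median 229 and the highest 312, and at ID8 the values were 518, 344 and 536. All ID8 animals thus exceeded all ID6 animals, while at ID4 the single value of 272 CPM lay within the ID6 range.

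From ID4 (389 ± 78.6 CPM, SD, n = 4) to ID6 (237 ± 48.3, n = 6) Cyp8b1 fell by 0.71 on the log2 scale (SE 0.14, adjusted p = 0.0029), and from ID6 to ID8 (466 ± 106, n = 3) it rose by 0.97 (SE 0.15, adjusted p = 0.00131). Both calls held with any 1 animal left out, at -0.85 to -0.63 and at 0.86 to 1.14. With the title number range as a covariate the rise was 1.12 with adjusted p = 0.0874. All ID8 animals were numbered under 200 and all ID6 animals 200 or over. For ID8 against ID6, number range and stage can be separated only through the ID2 and ID4 animals. Against NUL (353 ± 39.1, n = 4) the ID6 level was lower by 0.57 (log2 fold change -0.57, SE 0.14, adjusted p = 0.0443). That call was lost without any 1 of ID6_201, ID6_209, ID6_216, ID6_232, NUL_220, NUL_221 and NUL_227, at adjusted p = 0.0778 (without ID6_232) to 0.166 (without NUL_221). It was also lost without the filter on low counts (0.0758), with the title number range as a covariate (0.05), with only ID6 and NUL in the fit (0.0727) and on log2(TPM + 1) and log2(TPM + 0.1) (0.0685 and 0.0682), and held by DESeq2 (0.00616).

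During lactation Cyp8b1 stood at 502 ± 33.1 CPM (n = 3), 0.51 above NUL on the log2 scale (SE 0.17), with an edgeR adjusted p of 0.052 that missed the threshold. Of 10 alternatives, 4 called it: DESeq2 (adjusted p = 0.0247), RLE scaling (0.0469), the clock score as a covariate (0.043) and only LAC and NUL in the fit (0.0118). So did edgeR without NUL_221 (0.0458). At ID2 the log2 fold change against NUL was 0.52 (SE 0.17, adjusted p = 0.0907, 0.0375 by DESeq2 and 0.0249 with only ID2 and NUL in the fit). At REG Cyp8b1 was 389 ± 44.9 CPM (n = 4), with a difference from NUL of 0.14 on the log2 scale (95% interval -0.17 to 0.45).

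Cyp27a1, the mitochondrial sterol hydroxylase that opens the alternative pathway and oxidises the side chain, was lowest at ID2 and ID4. It lies at chr1:74713574-74737892 on the plus strand (GRCm38). Its CPM values were 360.1, 299.7, 281 and 377 in NUL and 408, 415 and 379 at LAC. They were 248, 255 and 199 at ID2 and 200.5, 209.1, 258 and 303 at ID4. At ID6 the lowest, median and highest values were 301, 366 and 417. No ID2 animal reached the lowest NUL or LAC animal. One of the 4 ID4 animals, at 303 CPM, was within the NUL and ID6 ranges.

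From LAC (401 ± 19.0 CPM, n = 3) to ID2 (233.9 ± 30.7, n = 3) Cyp27a1 fell by 0.78 on the log2 scale (SE 0.14, adjusted p = 0.000423), and from ID4 (243 ± 47.3, n = 4) to ID6 (364 ± 44.5, n = 6) it rose by 0.59 (SE 0.11, adjusted p = 0.00149). Both calls held without any 1 animal, ID2_31 included, at -0.84 to -0.67 and at 0.50 to 0.71. They also held with the title number range (-0.56 and 0.44) or the clock score (-0.57 and 0.47) as a covariate. Against NUL (329.5 ± 46.5, n = 4) the changes were -0.49 at ID2 (SE 0.13, adjusted p = 0.0323) and -0.44 at ID4 (SE 0.12, adjusted p = 0.0308). Neither was called with the number range as a covariate, at -0.28 (adjusted p = 0.461) and -0.30 (0.225), with the clock score, at -0.25 (0.611) and -0.36 (0.0792), or with only the compared groups in the fit (0.062 and 0.0962). The ID2 call was lost without ID2_224, ID2_31, ID2_39, NUL_220 or NUL_227, with adjusted p of 0.0526 (without ID2_31) to 0.229 (without ID2_39). The ID4 call was lost without ID4_13, ID4_15, NUL_220 or NUL_227, with adjusted p of 0.0838 to 0.125. Against NUL, the ID8 and REG levels of Cyp27a1 differed by 0.12 (95% interval -0.13 to 0.37) and -0.02 (-0.25 to 0.21).

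Since Cyp8b1 and Cyp27a1 moved in opposite directions from ID4 to ID6, the letters around their start sites are shown for both, as 300 bases each from RefSeq (GRCm38.p6), read 5′ to 3′ on the strand of the gene. Of the 10 genes, 8 had such a window, all but Cyp7a1 and Cyp7b1, and Slc10a1 had 2. The Cyp8b1 window (chr9:121916256-121916555, minus strand) holds CAAAGTCCA, an element of the type bound by HNF4, with its first base at position -67 from the start site, in capitals. That string occurs on either strand in 0.47% of 32851 promoter windows of this length. The Cyp27a1 window (chr1:74713285-74713584, plus strand) holds none of the 4 strings searched on both strands (CAAAGTCCA, AGGTCA, AGGTCANTGACCT and CACGTG), and so has no capitals.
Cyp8b1: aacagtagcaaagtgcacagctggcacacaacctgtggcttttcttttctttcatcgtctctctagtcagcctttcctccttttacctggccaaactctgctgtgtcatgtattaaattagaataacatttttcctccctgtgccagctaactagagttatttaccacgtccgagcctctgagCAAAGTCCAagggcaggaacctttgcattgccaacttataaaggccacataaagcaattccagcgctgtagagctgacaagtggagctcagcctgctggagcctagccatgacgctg
Cyp27a1: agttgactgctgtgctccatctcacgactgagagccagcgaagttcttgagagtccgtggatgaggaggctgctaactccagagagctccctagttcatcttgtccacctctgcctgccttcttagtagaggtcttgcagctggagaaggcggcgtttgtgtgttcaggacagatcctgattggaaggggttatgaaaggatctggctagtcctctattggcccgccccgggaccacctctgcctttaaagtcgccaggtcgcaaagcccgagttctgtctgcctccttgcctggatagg

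Cyp7a1, the rate-limiting enzyme of the classic pathway, had the largest fold difference of the 10 genes between its highest and lowest stage means, 3.44-fold from ID4 to LAC, and was not called in any comparison. It lies at chr4:6265612-6275633 on the minus strand. In NUL the values were 73.2, 60.2, 48.7 and 56.9 CPM, and at LAC they were 174, 206 and 90.8 CPM. All LAC animals were above all NUL animals. The LAC mean of 157 ± 59.4 CPM (n = 3) against 59.7 ± 10.2 (n = 4) gave a log2 fold change of 1.39 (SE 0.58), with an unadjusted p of 0.0265 and an adjusted p of 0.142 by edgeR. With only LAC and NUL in the fit, the adjusted p was 0.0325. The other alternatives and all 7 fits with 1 animal left out gave no call, at 1.15 to 1.67 for the latter.

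At ID6, Cyp7a1 read 44.3, 33.6, 29.2 and 41.9 CPM in 4 animals and 202 and 168 CPM in ID6_230 and ID6_232. The gap between these animals was wider than the span of all NUL animals. The coefficient of variation within a stage ranged from 17.1% in the tightest group to 89.2% at ID6. In ID6_230 and ID6_232, Cyp7b1 was 29.9 and 39.8 CPM, against 54.3 to 68.7 CPM in the other 4 ID6 animals. This contrast was noticed after the values were seen and is given without a test. At ID2 the Cyp7a1 values were 49.8, 69.8 and 134, at ID4 they were 55.1, 34.1, 35.1 and 57.9, at ID8 they were 103, 59.9 and 123, and at REG they were 48.7, 121, 80.4 and 87.8 CPM. Each of these groups overlapped NUL.

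Cyp7b1, the oxysterol hydroxylase of the alternative pathway, had a stage mean between 35.1 ± 3.62 CPM at ID2 (n = 3) and 59.5 ± 8.58 CPM at ID4 (n = 4). It lies at chr3:18071950-18243338 on the minus strand. All 4 ID4 animals (66.4, 51.8, 67.4 and 52.3 CPM) were above all 3 ID2 animals (34.3, 39.1 and 32.0 CPM). The log2 fold change of 0.76 (SE 0.34) had an adjusted p of 0.32 in the fit with all stages and of 0.00388 with only ID2 and ID4 in the fit, which uses the spread of those 2 groups alone. In NUL its values ran from 30.5 to 68.1 CPM and at LAC from 23.0 to 68.3 CPM. The LAC difference of 0.07 (95% interval -0.58 to 0.73) changed sign when LAC_200 was left out (-0.27), when NUL_220 (-0.03) or NUL_226 (-0.08) was left out, and on TPM (-0.08).

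Nr0b2, the repressor known as SHP, had its lowest stage means at LAC and ID8 (29.2 and 29.5 CPM), and neither difference from NUL passed the threshold in the fit with all stages. It lies at chr4:133553376-133556536 on the plus strand. The LAC values were 21.8, 26.2 and 39.7 CPM and the ID8 values 23.4, 40.2 and 25.0 CPM. In NUL they were 43.8, 31.7, 64.1 and 89.9, and at ID6 the lowest, median and highest were 40.8, 66.0 and 93.9. All ID8 animals were below all ID6 animals, while LAC overlapped NUL. The log2 fold changes were -0.97 for LAC against NUL (SE 0.40, adjusted p = 0.139), -0.96 for ID8 against NUL (SE 0.40, adjusted p = 0.321) and -1.21 for ID8 against ID6 (SE 0.38, adjusted p = 0.0782). The last of these was called by 4 of 10 alternatives. They include DESeq2 (adjusted p = 0.0225), limma on log2(TPM + 1) (-1.31, adjusted p = 0.0251) and edgeR with the clock score as a covariate (-1.98, adjusted p = 0.00971). The other 6, the title number range as a covariate among them, did not call it, with adjusted p up to 0.352. All ID8 animals were in the lower number range and no ID6 animal was, so these groups alone cannot separate number range from stage. With the clock score as a covariate the LAC difference from NUL was also called (-1.12, adjusted p = 0.0315), the 1 of 10 alternatives to do so. The joint test without REG_203 gave an adjusted p of 0.0173.

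Among the uptake carriers, Slc10a1 (NTCP, the sodium-dependent carrier of conjugated bile acids) was highest at ID8 and REG. It lies at chr12:80953183-80968705 on the minus strand. The ID8 values of 657, 679 and 673 CPM and the REG values of 668, 644, 684 and 638 CPM were all above the NUL values of 589.5, 495, 460.3 and 530.4 CPM. At ID6 the lowest, median and highest were 445, 460.3 and 551. The rise from ID6 (481 ± 44.96, n = 6) to ID8 (669.7 ± 11.4, n = 3) was 0.48 on the log2 scale (SE 0.09, adjusted p = 0.00452), and it was called without any 1 animal. With the title number range as a covariate it was 0.51 (adjusted p = 0.119). Against NUL, ID8 was higher by 0.37 (SE 0.10, adjusted p = 0.0993, and 0.024 by DESeq2) and REG (658 ± 21.7, n = 4) by 0.34 (SE 0.10, adjusted p = 0.228). Slc10a1 was the 1 gene of the 10 without overlap in CPM between REG and NUL, and likewise between ID8 and NUL, against 3.70% and 11.9% of all genes.

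Slco1b2 (OATP1B2), a sodium-independent carrier of bile acids and other organic anions, was lowest at LAC. It lies at chr6:141629518-141686646 on the plus strand. Its values were 542, 666 and 503 CPM at LAC and 696, 693, 722 and 808 CPM in NUL, without overlap. The log2 fold change was -0.36 (SE 0.12, adjusted p = 0.0434), from 729.8 ± 53.7 (n = 4) to 570.4 ± 85.4 CPM (n = 3). This call held without LAC_213 (adjusted p = 0.019) and was lost without any other of the 7 animals (LAC_200 0.150, LAC_240 0.213, NUL_220 0.0534, NUL_221 0.0593, NUL_226 0.0731 and NUL_227 0.117). It was also lost with the clock score as a covariate (0.0555) and with only LAC and NUL in the fit (0.0781). Over the 10 alternatives the log2 fold change lay between -0.46 and -0.34. At ID4 it stood at 773, 803, 795 and 761 CPM, a narrow range above all ID2 values (688, 645 and 595). The ID2 to ID4 difference of 0.29 (SE 0.11) was not called (adjusted p = 0.246).

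Abcb11 (BSEP), the pump that moves bile salts into bile, was higher at LAC. It lies at chr2:69238282-69342616 on the minus strand. The LAC values were 1045, 1106 and 1145 CPM and the NUL values 1007, 765, 775 and 898 CPM, without overlap. The log2 fold change was 0.35 (SE 0.11, adjusted p = 0.0399), from 861 ± 114 to 1099 ± 50.2 CPM. It was called without NUL_220 (adjusted p = 0.0163) and lost without any other of the 7 (LAC_200 0.0631, LAC_213 0.111, LAC_240 0.132, NUL_221 0.107, NUL_226 0.125 and NUL_227 0.0502). It was also lost without the filter on low counts (0.0638), with only LAC and NUL in the fit (0.082) and on TPM, where the change was 0.27 (adjusted p = 0.181 on log2(TPM + 1) and 0.175 on log2(TPM + 0.1)). At ID4 (1226, 995, 1056 and 1082 CPM) the difference from NUL was 0.34 (SE 0.10, adjusted p = 0.0595, 0.0172 by DESeq2 and 0.0378 with the clock score as a covariate). In the overlap with the antisense gene Gm13613, at most 13 counts were assigned to Gm13613 in a library.

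The start-site windows of Slco1b2 and Abcb11, the transporters called in opposite directions at LAC, each hold the nuclear receptor half-site AGGTCA on the minus strand of the window, printed as TGACCT in capitals, with its first base at position -81 in Slco1b2 (chr6:141629268-141629567, plus strand) and -56 in Abcb11 (chr2:69342567-69342866, minus strand). The half-site occurs in 4 of the 9 windows of the 8 genes (also in Abcc2 and in 1 of the 2 windows of Slc10a1) and in 16.26% of all windows. The inverted repeat AGGTCANTGACCT, which contains 1 half-site on each strand and is the type of element that FXR binds, was in 0 of the 9 and in 0.01% of all windows. A match describes letters in these windows and not binding.
Slco1b2: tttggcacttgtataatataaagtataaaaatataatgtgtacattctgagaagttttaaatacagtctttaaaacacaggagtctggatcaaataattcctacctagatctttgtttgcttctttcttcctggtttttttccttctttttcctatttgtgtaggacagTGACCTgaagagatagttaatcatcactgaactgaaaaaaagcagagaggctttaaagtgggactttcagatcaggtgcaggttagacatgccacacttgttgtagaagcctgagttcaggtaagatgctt
Abcb11: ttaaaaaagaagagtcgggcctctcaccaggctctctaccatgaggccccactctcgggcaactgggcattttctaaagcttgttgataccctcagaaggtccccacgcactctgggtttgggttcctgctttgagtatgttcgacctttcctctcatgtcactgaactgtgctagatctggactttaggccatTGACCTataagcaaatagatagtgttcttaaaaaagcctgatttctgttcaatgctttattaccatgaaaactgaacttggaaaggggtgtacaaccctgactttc

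Abcb4, the floppase that supplies phosphatidylcholine to bile, fell from ID4 to ID6. It lies at chr5:8893717-8959231 on the plus strand. All 4 ID4 animals (325, 276, 270.5 and 315 CPM) were above the highest ID6 animal (257 CPM, with a median of 198 and a lowest value of 180.1). The log2 fold change was -0.49 (SE 0.14, adjusted p = 0.0241), from 297 ± 27.4 (n = 4) to 211.02 ± 33.7 CPM (n = 6). It was not called without ID4_13 (adjusted p = 0.0878) or ID4_215 (0.0726), nor with the title number range as a covariate (-0.52, adjusted p = 0.0667), nor on log2(TPM + 1) (-0.36, adjusted p = 0.126). At LAC the values of 175, 194 and 200.6 CPM were below all NUL values (213.8, 268, 243 and 268). That difference of -0.39 (SE 0.16) was not called in the fit with all stages (adjusted p = 0.141) and was called with only LAC and NUL in the fit (0.0365).

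Abcc2 (MRP2), which exports glucuronide and glutathione conjugates, had the narrowest span of stage means, 1.26-fold, from 214.2 ± 20.99 CPM at ID8 (n = 3) to 270.5 ± 42.2 CPM in NUL (n = 4). It lies at chr19:43782192-43840740 on the plus strand. It was not called in any comparison. Its log2 fold change for ID8 against NUL was -0.34 (95% interval -0.60 to -0.07, adjusted p = 0.281), and every other comparison lay between -0.24 and 0.23.

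Some markers of other cell types moved with some of these stages. In LAC, summed TPM of 6 duct cell markers was 19.4 to 26.7 against 33.0 to 47.7 in NUL, with Sox9 and Spp1 called lower. Most of that sum was Spp1, with a mean of 20.4 TPM in LAC and 36.2 in NUL. Mean CPM in LAC and NUL was 1.29 and 1.36 for Krt19, 0.81 and 0.74 for Krt7, 0.96 and 1.18 for Epcam and 0.09 and 0.04 for Cftr. Summed TPM of 6 Kupffer cell and macrophage markers was 187 to 253 in LAC against 304 to 362 in NUL, with 4 of 6 called lower. The 6 hepatocyte markers summed to 128363 to 149560 TPM in LAC against 72925 to 93372 in NUL, with Alb the 1 called gene. Most of that sum was Alb, with a mean of 113055 TPM in LAC and 61355.5 in NUL. By mean TPM, Ttr and Apob were lower in LAC than in NUL, and Apoa1, Cps1 and Serpina1c were higher. The 5 markers of sinusoidal endothelium summed to 105 to 118 TPM in LAC against 136 to 148 in NUL, with adjusted p of 0.0652 (Stab2) or more. At ID4 and ID6 the macrophage markers summed to 438 to 528 and 413 to 566 TPM, and 5 and 4 of 6 were called higher than in NUL. Of 5 duct markers tested, only Sox9 was called at ID4 against NUL, and it was lower. The median log2 fold change of these markers was 0.01. Between successive stages, 4 of the 6 macrophage markers were called higher from LAC to ID2 and 5 from ID2 to ID4, and 3 were called lower from ID6 to ID8. From LAC to ID2, Stab2 and Kdr of 5 endothelial markers and Spp1 of 5 duct markers tested were called higher. Alb was called lower from LAC to ID2 and again from ID2 to ID4, and Cps1 of the 6 hepatocyte markers was called higher at ID2 than in NUL. The part of these shifts in the results above was not tested. In whole liver, fewer cells of a type and less RNA per cell cannot be told apart.

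Per length, Slc10a1 ranked first of the 10 in all 7 stages, at 445 ± 43.8 TPM in NUL (n = 4). In NUL it was followed by Slco1b2 (292 TPM), Cyp27a1 (259), Cyp8b1 (253) and Abcb11 (225), whose ranges overlapped from neighbour to neighbour. Abcb4 (85.4 TPM), Nr0b2 (80.1), Abcc2 (48.2), Cyp7b1 (29.0) and Cyp7a1 (18.5) came next, and again each range overlapped the next. Only the steps from Slc10a1 to Slco1b2 and from Abcb11 to Abcb4 had no overlap. As in NUL, Cyp8b1 came below Slco1b2 at ID4 (264 and 296 TPM) and at ID6 (176 and 273 TPM), each time with overlapping ranges. At LAC, Cyp8b1 came second (337 TPM), without overlap with the genes above and below it. The ratio of Cyp8b1 to Cyp7a1 TPM had a median of 14.4 in NUL (11.4 to 15.2), 7.20 at LAC (5.41 to 12.3), 18.2 at ID4 (17.2 to 28.3) and 11.9 at ID6 (3.09 to 17.2). The median was 16.1 at ID2 (8.78 to 22.6), 10.6 at ID8 (8.76 to 13.4) and 11.5 at REG (6.21 to 19.2). The ID4 ratios were all above the NUL ratios, while the ranges at ID2, ID6 and REG overlapped that at ID4. At ID6 the ratios of ID6_230 and ID6_232 were 3.34 and 3.09.

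Whether single animals with more Nr0b2 had less of the enzymes it represses was asked within stages, from deviations of log2(CPM + 1) from the stage mean in 27 animals. The 5 pairs were tested by permutation, with 100000 shuffles within stages. For Cyp7a1 with Nr0b2, Pearson's r was -0.43 (permutation p = 0.0237, adjusted 0.0772) and Spearman's rho -0.48 (p = 0.02, adjusted 0.0684). For Cyp8b1 with Nr0b2, r was -0.38 (permutation p = 0.0463, adjusted 0.0772) and rho -0.43 (p = 0.0277, adjusted 0.0684). For Cyp7a1 with Cyp8b1, r was 0.47 (permutation p = 0.0437, adjusted 0.0772) and rho 0.44 (p = 0.041, adjusted 0.0684). None of the 5 pairs passed an adjusted p of 0.05.

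Without the 2 animals farthest from the median of the first gene, these 3 values of r were -0.46, -0.44 and 0.42. Among the 20 animals numbered 200 or over they were -0.44, -0.33 and 0.40, and among the 7 under 200 they were -0.15, -0.50 and 0.88. Abcb11, which FXR also drives, gave r = 0.02 with Nr0b2 (permutation p = 0.933) and rho = 0.06 (p = 0.814). It was 0.11 without the 2 farthest animals and 0.02 and -0.11 in the 2 number ranges. Cyp7a1 with the clock score gave r = -0.00 (permutation p = 0.999) and rho = -0.09 (p = 0.686), with -0.12 without the 2 farthest animals and -0.12 and 0.03 in the 2 ranges. With the clock score as a covariate, r was -0.54 for Cyp7a1 with Nr0b2, -0.31 for Cyp8b1 with Nr0b2, 0.48 for Cyp7a1 with Cyp8b1 and 0.29 for Abcb11 with Nr0b2.

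**Figure D3:**
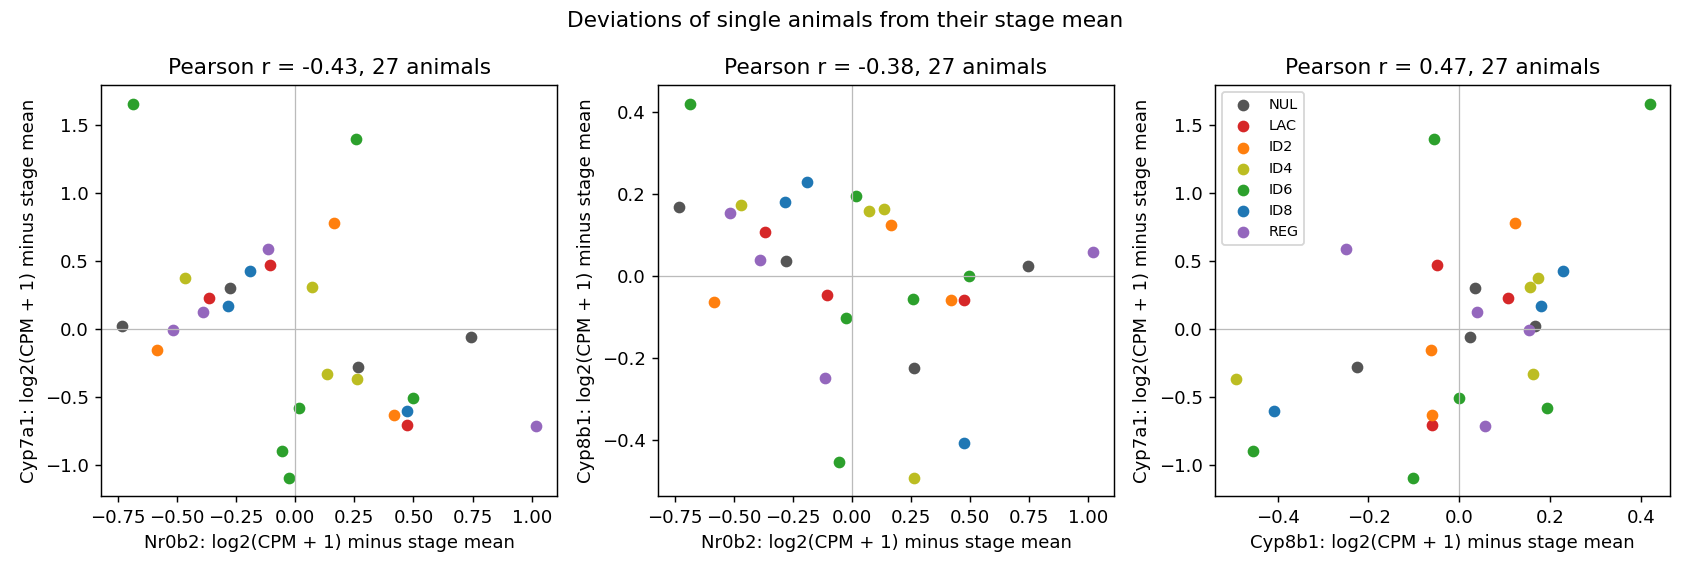
Deviation of each animal's log2(CPM + 1) from its stage mean, for Cyp7a1 against Nr0b2 (left), Cyp8b1 against Nr0b2 (middle) and Cyp7a1 against Cyp8b1 (right), with 27 animals coloured by stage. Pearson's r is -0.43, -0.38 and 0.47, and the 2 ID6 animals with high Cyp7a1 lie at the top of the left and right panels.

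A further 48 genes of the pathway, in 3 lists, were read in the same fit, and 45 had enough counts to be tested. Ch25h, Slc51a and Gpbar1 were not tested, with at most 11, 0 and 6 counts in a library. In the joint test 10 of 15 other genes of synthesis and conjugation, 6 of 13 of transport and 7 of 17 regulators were called, against 26.97% of all genes. FXR itself (Nr1h4) was not called (adjusted p = 0.391), with stage means of 46.1 to 64.9 CPM, and neither was Fgfr4, the receptor for the intestinal signal FGF15 (adjusted p = 0.869, 40.1 to 45.1 CPM).

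At LAC, synthesis and conjugation had 5 of 15 genes called against NUL, 3 higher and 2 lower, with a list median of 0.17, where 11.2% of all genes were called. Hsd3b7, which acts just after Cyp7a1, was 651.6 ± 55.6 CPM in NUL (n = 4) and 444 ± 54.6 at LAC (n = 3), and so fell by 0.55 on the log2 scale (SE 0.10, adjusted p = 0.000825). Akr1c6, a hydroxysteroid dehydrogenase, was lower by 0.49 (log2 fold change -0.49, SE 0.15, adjusted p = 0.0314). Acox2, the peroxisomal oxidase of the side chain, was higher by 0.28 (SE 0.09, adjusted p = 0.0432). Of 17 regulators, 0 were called. Of 13 transport genes, 2 were called, both higher, a share near that of all genes. Ephx1, the microsomal epoxide hydrolase, stood at 337 ± 81.5 CPM in NUL and at 610.3 ± 34.7 at LAC, higher by 0.86 on the log2 scale (SE 0.13, adjusted p = 7.69e-05), and Abcg2, an exporter of urate and drugs, rose by 0.49 (SE 0.14, adjusted p = 0.0189).

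At ID2 against NUL, 0 of 15 genes of synthesis and conjugation were called. In the same comparison 1 of 13 transport genes and 3 of 17 regulators were called, all higher. Of all genes 3.24% were called there, and 71.6% of those calls were higher. Clock genes moved in the same comparison, with 4 of 9 of the day arm called higher and 2 of 5 of the night arm called lower. All 4 calls of the transport genes and regulators were lost with the clock score as a covariate. Clock scores at ID2 (-0.77 to 0.996) and in NUL (-2.57 to -1.36) did not overlap. That fit therefore separates score from stage only through differences between animals of the same stage. Slc51b, a subunit of the basolateral exporter of bile acids, was at 0.987 ± 0.240 CPM in NUL and 2.43 ± 0.818 at ID2 (log2 fold change 1.29, SE 0.25, adjusted p = 0.00373), a low level in all stages. Ppargc1a, a coactivator of fasting metabolism, was at 5.68 ± 1.63 CPM in NUL and 11.6 ± 0.262 at ID2 (1.03, SE 0.24, adjusted p = 0.0142). Mafg, a repressor induced by FXR, rose by 0.44 (SE 0.11, adjusted p = 0.0227) and Klb, the co-receptor of Fgfr4, by 0.47 (SE 0.12, adjusted p = 0.0353). At ID4 against NUL, Slc51b (0.97, adjusted p = 0.0148), Mafg (0.35, adjusted p = 0.0472) and Cyp2a12 (0.40, adjusted p = 0.00951), a hydroxylase of secondary bile acids, were among 5 of the 45 genes called, all higher, where 4.25% of all genes were called and 62.2% of those calls were higher.

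Between successive stages several of these genes were called again. From LAC to ID2, Ephx1 fell by 1.08 (SE 0.14, adjusted p = 1.31e-05), Abcg2 by 0.59 (adjusted p = 0.0073) and Cyp2c70, which makes muricholic acids in mice, by 0.62 (adjusted p = 0.0205), while Slc51b rose by 1.36 (adjusted p = 0.00137), Ppargc1a by 1.12 (0.00451) and Mafg by 0.49 (0.00635). From ID4 to ID6, Mafg fell by 0.51 (adjusted p = 0.00107), Ppargc1a by 0.81 (adjusted p = 0.0129), Cyp2a12 by 0.42 (adjusted p = 0.00254) and Acox2 by 0.27 (adjusted p = 0.0257), while Abcg2 rose by 0.40 (adjusted p = 0.0318). From ID6 to ID8, Acox2 rose by 0.42 (SE 0.08, adjusted p = 0.00452), from 135 ± 11.7 (n = 6) to 181 ± 6.31 CPM (n = 3). Acox2 thus fell and rose at the same steps as Cyp8b1. Its fall lost the call in 6 of 10 alternatives (adjusted p up to 0.331) and in 4 of 10 fits without 1 animal. Its rise lost the call in 2 of 10 alternatives (adjusted p up to 0.117) and without ID8_101b (0.05). Scp2, a peroxisomal thiolase and carrier protein, was called in the joint test (adjusted p = 0.00312) and in no single comparison, with stage means of 1812 (LAC) to 2456 CPM (ID4). Of the 24 calls of these 12 genes, 11 held without any 1 animal: Ephx1 and Hsd3b7 at LAC against NUL, Ephx1, Abcg2, Slc51b and Ppargc1a from LAC to ID2, Slc51b at ID2 and Cyp2a12 at ID4 against NUL, and Mafg, Ppargc1a and Cyp2a12 from ID4 to ID6. The other 13 lost the call without at least 1 animal, with adjusted p up to 0.205 (Mafg at ID2, without ID2_224). Of the 24 calls, 7 held in every other alternative, an adjusted p under 0.01 among them. With the clock score as a covariate 12 were lost: those 4 at ID2 against NUL, Acox2 at LAC and Mafg at ID4 against NUL, Mafg, Abcg2 and Cyp2c70 from LAC to ID2, Acox2 and Abcg2 from ID4 to ID6 and Acox2 from ID6 to ID8. On log2(TPM + 1) and on log2(TPM + 0.1) 8 each were lost, 6 with the title number range as a covariate, 5 with only the compared groups, 2 without the filter and 1 with the number of sequencing runs as a covariate.

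**Figure D4:**
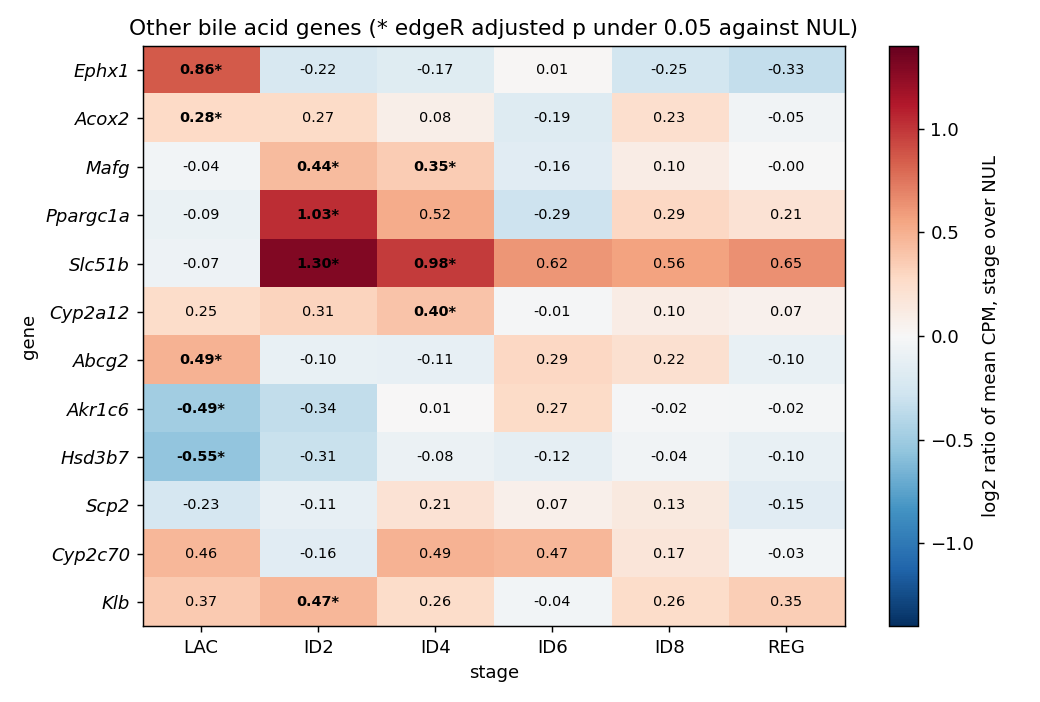
The 12 other bile acid genes with the smallest joint p (rows), as the log2 ratio of mean CPM in each stage over NUL (columns), printed in each cell and coloured from blue (lower) to red (higher). A star marks an edgeR adjusted p under 0.05 against NUL. The largest ratios are those of Slc51b (1.297) and Ppargc1a (1.03) at ID2, and all 12 stars fall at LAC, ID2 and ID4.

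Genes whose levels ran most alike with the 4 members of smallest joint p (not the fifth, Abcb4) were sought among 8273 genes over the 27 libraries, which share stages and scaling. Cyp8b1 was most like Bhmt (Pearson's r = 0.93), the betaine-homocysteine methyltransferase, the related Bhmt2 (0.89) and Cmbl (0.88). Over the 7 stage means, r with Bhmt was 0.94. Cyp27a1 was most like Slc39a4, a zinc importer (0.84), H2afz (0.82) and Hint1 (0.80). Slc10a1 was most like Ptpmt1 (0.78), Car5a (0.76) and Gstt2 (0.75), and Slco1b2 most like Ube2g1 (0.81), Vps26c (0.78) and Tspan12 (0.77).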

How the data were processed

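Livers of 27 BALB/c mice in 7 stages were measured by bulk RNA sequencing. Trizol extraction and a NEBNext Ultra kit are given per the labels. The authors' readme lists 2 sequencing runs for 16 libraries and 1 run for the other 11. Per the submitters' processing notes, the authors used STAR 2.6.1a and RSEM 1.3.1 with the builds mm10 and GRCm38. The use of strand is not given in the sources used here. The expected count per gene is RSEM's estimate of the reads from that gene as deposited by the authors, not normalised between libraries, and TPM is the length-scaled value in the same deposited tables.

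Symbols and positions came from GENCODE release M21 (GRCm38), in which 51633 of 51826 identifiers were found, and the 193 others held 0.0147% of the counts. Expected counts of the 10 genes were whole in every library. Rounded counts went into edgeR 4.0.16 (R 4.3.3): filterByExpr by stage, TMM scaling and 1 robust quasi-likelihood fit of all 27 libraries, with 11 pairwise comparisons and a joint test. Tests were two-sided, p-values were adjusted by Benjamini-Hochberg over 16428 genes, and intervals of log2 fold changes are 95% from the SE. No pair of libraries within a stage agreed within counting noise (smallest chi-square 42.39 per gene). The 10 genes, the lists of other genes and the tests were chosen with earlier results of these data known. All 10 genes are named, with the 12 genes of the 3 lists that had the smallest joint p and the 3 genes most like each of the 4 members of smallest joint p. Outside that rule, Nr1h4 and Fgfr4 were named for their role after their values were seen, and Ch25h, Slc51a and Gpbar1 because they could not be tested. The procedure was tested on simulated data. Alternatives were RLE scaling, no filter, limma 3.58.1 on log2(TPM + 1) and log2(TPM + 0.1), DESeq2 1.42.0, covariates (title number range, number of runs, clock score), only the compared groups, an adjusted p under 0.01 and leaving out each animal. Promoter sequences came from RefSeq (GRCm38.p6).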

Additional observations from a re-analysis of the deposited data

Results flagged for a closer look

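Within each stage of 4 or 6 animals, the highest and the lowest value of each of the 10 genes was set against the others, 40 sets in all. Chance marks about 1 in 20 such sets, and 2 were marked. Cyp8b1 in ID4_15 was 272 CPM, below the 427 to 431 CPM of the other 3 ID4 animals. Nr0b2 in REG_203 was 85.6 CPM, above the 28.9 to 38.5 CPM of the other 3 REG animals. Without ID4_15 the fall of Cyp8b1 from ID4 to ID6 was -0.85 in place of -0.71 on the log2 scale, and without REG_203 the joint test called Nr0b2 (adjusted p = 0.0173). These libraries also differed from their stage elsewhere. ID4_15 held 133 TPM of pancreas markers, against 10.9 to 14.8 in the other ID4 livers, and had a clock score of -0.58, against -1.66 to -1.33. REG_203 had a clock score of -0.50, against -1.80 to -1.37 in the other REG livers. The part of these differences in the values above was not tested.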

How the results depend on the processing

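No paired analysis was possible because no title number occurs in more than 1 stage. Counts of the 10 genes called changed as follows. For LAC against NUL (2), 1 was called without the filter, 1 on log2(TPM + 1) and 1 on log2(TPM + 0.1), 0 at an adjusted p under 0.01, 0 to 1 without single animals, and 3 with RLE scaling and by DESeq2 (Cyp8b1 added), with the clock score as a covariate (Cyp8b1, Abcb11 and Nr0b2) and with only the compared groups (Cyp7a1, Cyp8b1 and Abcb4). For ID4 to ID6 (3), alternatives and fits without single animals called 2 to 4. For ID2 against NUL (1), 0 were called with the title number range or the clock score as a covariate, 2 by DESeq2, 1 with only the compared groups (Cyp8b1 in place of Cyp27a1), 0 at 0.01 and 0 to 1 without single animals. For ID4 against NUL (1), 0 were called with the number range, 2 by DESeq2, 1 with the clock score (Abcb11 in place of Cyp27a1), 0 with only the compared groups, 0 at 0.01 and 0 to 1 without single animals. For ID6 against NUL (1), 0 were called without the filter, with the number range, on both TPM scales, with only the compared groups and at 0.01, and 0 to 1 without single animals. DESeq2 called 1 at ID8 against NUL (0 by edgeR). With only the compared groups 1 was called from ID2 to ID4 (0 with all stages), and with the number range 0 from ID6 to ID8 (2). The joint test (5) called 3 with the number range, 3 at 0.01 and 3 to 6 without single animals. The cause was not tested.

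Cyp7b1 at LAC against NUL (0.07) reversed to -0.083 on log2(TPM + 1), to -0.089 on log2(TPM + 0.1) and without LAC_200 (-0.27), NUL_220 (-0.03) or NUL_226 (-0.08), with a range of -0.27 to 0.41 without single animals. The r of Cyp7a1 with the clock score (-0.00) became 0.019 on TPM. Among all genes, 532 were called at ID2 against NUL, as compared with 108 in the fit with the number range and 35 with the clock score. From ID6 to ID8, 677 were called, as compared with 6 in the fit with the number range. On log2(TPM + 0.1) the median of all genes shifted to 0.13 from ID4 to ID6 and to -0.11 from ID6 to ID8. There 82.5% and 15.3% of calls were higher, against 45.6% and 57.6% by edgeR. For LAC, ID2, ID4, ID6, ID8 and REG against NUL these shares were 32.1%, 54.3%, 43.8%, 65.8%, 50.0% and 66.7%, against 46.4%, 71.6%, 62.2%, 37.1%, 72.0% and 28.6%. No call of the 10 genes changed direction on TPM. Groups of 3 to 6 animals and SEs up to 0.63 limit what could be called.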
